A study of Mus musculus with 6 samples.

Results

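The 10 dual-specificity phosphatase genes Dusp1, Dusp2, Dusp4, Dusp5, Dusp6, Dusp7, Dusp8, Dusp10, Dusp14 and Dusp16 were followed in lung endothelial cells (ECs) of mice infused with angiotensin II (AngII). They were selected on their names as phosphatases of mitogen-activated protein kinases (MAPKs), with earlier results for the same KO against WT comparison known. Their read counts in KO and WT libraries are therefore given as a description, and no test is read from them. All 10 were found among the 47729 genes counted, and all 10 were among the 14625 genes that passed the filter on low counts.

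The series holds 3 libraries of WT mice and 3 of leene-KO mice, which lack the mouse region corresponding to the human gene of the long noncoding RNA LEENE in every cell of the body, not in ECs alone. All mice were males aged 14 weeks on a chow diet, and both groups received AngII at 1000 ng/kg/min from an osmotic pump for 2 weeks, so no library shows the genes without AngII. The sample labels describe CD31-enriched lung cells pooled from 3 mice per group, whereas the methods of the study describe a sort on CD144, and neither says whether a library stands for 1 mouse. The n below counts libraries, and any p-value then measures the spread between these libraries, which may be technical.

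MAPKs such as ERK, JNK and p38 are switched on when both a threonine and a tyrosine in their activation loop are phosphorylated. Dual-specificity phosphatases take both phosphates off again, and several of their genes are themselves switched on by the kinases they inactivate, which closes a feedback loop. Dusp1, Dusp2 and Dusp4 encode inducible nuclear enzymes with several MAPKs as substrates, Dusp5, Dusp6 and Dusp7 encode enzymes directed at ERK, Dusp8, Dusp10 and Dusp16 encode enzymes directed at JNK and p38, and Dusp14 encodes a small atypical member. In ECs, Dusp1 is known as an early response gene of growth factors and thrombin, and Dusp6 as a target and brake of ERK signalling.

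The catalytic site of the family is shown first because it is what the members share. A script looked in the coding sequences of GENCODE M21 (GRCm38) for a histidine codon, a cysteine codon, any 5 codons and an arginine codon. Each of the 10 members held this stretch of 24 bases once, within a single exon. The codon of the cysteine, which attacks the phosphate, is in capitals in the following stretches, which were chosen to show an inducible nuclear member, an ERK-directed member, a pair of JNK and p38-directed members and the atypical member.
Dusp1: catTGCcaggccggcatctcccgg
Dusp6: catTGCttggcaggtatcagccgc
Dusp8: cacTGTctggctggcatctctcgc
Dusp16: cacTGCttagctgggatctctcgc
Dusp14: cacTGTgcggcaggcgtgagccgc
The cysteine codon was TGT in Dusp8 and Dusp14 and TGC in the other 8 members. The stretch lay at chr17:26506592-26506615 on the minus strand in Dusp1, at chr10:99266027-99266050 on the plus strand in Dusp6 and at chr7:142083333-142083356 on the minus strand in Dusp8. It matched Dusp1 at 17 of 24 bases in Dusp6, at 18 in Dusp8, at 16 in Dusp16 and at 14 in Dusp14. Dusp4 matched it at 22 bases, and Dusp2 and Dusp4 encode the same 8 residues as Dusp1 there. Around this shared site the coding sequences differed in length, from 198 codons in Dusp14 and 367 in Dusp1 to 660 in Dusp16 and 663 in Dusp8.

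Promoters were read for 9 of the 10 members, all but Dusp4, from RefSeq's table for GRCm38.p6, in windows from 250 bases before to 50 bases after the start site. The 250 bases before the start are shown for Dusp8, Dusp1 and Dusp6, the members whose scaled level was lower in every KO library than in any WT library, and for Dusp5, which stands beside Dusp6 as an ERK-directed member. Capitals mark matches to the cAMP response element TGACGTCA in Dusp8 and Dusp1 and to the CArG box in Dusp5, the latter being the sequence known to bind serum response factor.
Dusp8: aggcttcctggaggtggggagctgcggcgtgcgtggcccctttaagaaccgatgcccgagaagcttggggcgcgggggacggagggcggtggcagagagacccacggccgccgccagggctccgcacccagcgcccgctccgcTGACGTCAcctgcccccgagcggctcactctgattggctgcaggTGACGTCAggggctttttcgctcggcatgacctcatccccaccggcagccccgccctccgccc
Dusp1: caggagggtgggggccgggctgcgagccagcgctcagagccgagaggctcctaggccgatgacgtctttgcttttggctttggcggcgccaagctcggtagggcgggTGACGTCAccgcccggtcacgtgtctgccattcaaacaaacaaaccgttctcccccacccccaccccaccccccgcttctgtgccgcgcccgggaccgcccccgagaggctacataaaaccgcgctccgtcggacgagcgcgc
Dusp6: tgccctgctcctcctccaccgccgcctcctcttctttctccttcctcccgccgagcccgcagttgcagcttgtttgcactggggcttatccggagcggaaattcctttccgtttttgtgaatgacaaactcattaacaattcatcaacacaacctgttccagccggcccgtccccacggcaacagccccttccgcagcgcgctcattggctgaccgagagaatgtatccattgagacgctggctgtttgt
Dusp5: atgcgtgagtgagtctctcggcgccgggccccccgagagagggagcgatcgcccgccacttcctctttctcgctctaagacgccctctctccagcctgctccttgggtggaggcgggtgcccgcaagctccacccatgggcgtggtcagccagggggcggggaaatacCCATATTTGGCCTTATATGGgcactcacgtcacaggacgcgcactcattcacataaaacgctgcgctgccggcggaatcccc
The windows lie at chr7:142095285-142095534 (minus strand), chr17:26508473-26508722 (minus strand), chr10:99262981-99263230 (plus strand) and chr19:53528895-53529144 (plus strand), in the order Dusp8, Dusp1, Dusp6 and Dusp5. In the annotation used for counting, Dusp8 reaches further upstream, to position 142095843, so that RefSeq's window lies inside the counted gene.

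Dusp8 held 2 matches to TGACGTCA, at -107 to -100 and at -63 to -56 from the start site, and Dusp1 held 1 at -143 to -136. The other 7 promoters, that of Dusp6 included, held none in this window. Both strands were searched, and 588 of 32851 promoters in the table (1.79%) held a match and 13 (0.0396%) held 2 or more. The CArG box was matched at -82 to -73 and at -72 to -63 in Dusp5 and in no other member. Of all promoters, 1.63% held a match and 0.0183% held 2 or more. GAANNTTC, a pair of heat shock element units facing each other, was matched once, at -25 to -18 in Dusp16 (7.86% of all promoters), while TTCNNGAA (8.52%) and the AP-1 site TGANTCA (7.81%) were matched in no member. The short KLF box CACCC, left in lower case, was matched in 7 of 9 members, all but Dusp7 and Dusp14, and in 57.5% of all promoters, and a match in Dusp1 shares 2 bases with the cAMP response element. These matches describe letters in a window and are not binding sites.

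Counts per library totaled 24464324 to 35184063, of which 37.4% to 54.5% fell on mitochondrial genes, and scaling factors (TMM) ran from 0.874 to 1.37, highest in WT replicate 1. The lncRNA genes of the deleted region are not listed in the annotation used for counting, so the genotypes are those of the labels. Over all genes, 16 of 14625 (0.109%) passed edgeR's quasi-likelihood test at a Benjamini-Hochberg adjusted p under 0.05, 5 of them with higher and 11 with lower KO values. Scaling to total counts instead gave 123 genes, 61 higher and 62 lower, and moved the median log2 fold change of all genes by -0.17, from 0.03 to -0.13. The EC markers Pecam1 (313 to 582 CPM, counts scaled to library size) and Cdh5 (178 to 753 CPM) were present in all 6 libraries and their groups overlapped. The alveolar type II marker Sftpc was at 2051, 24029 and 7562 CPM in WT replicates 1 to 3, against 19809 to 23835 CPM in KO, so transcripts of these epithelial cells were present in unequal amounts. The WT libraries did not form a close group. WT replicate 2 had a chi-square per degree of freedom over all counts of 44.5 to 73.9 against each KO library. Against the other WT libraries it had 284 and 200. WT replicates 1 and 3 had 167 between them. WT replicate 3 had 91.0 against KO replicate 1, and 193 and 164 against KO replicates 2 and 3. Against the other libraries WT replicate 1 had 167 to 299, where pairs of KO libraries had 37.0 to 49.2.

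Per length, Dusp1 and Dusp6 stood highest among the members and Dusp2 lowest. On the scale of CPM per kb of exon, Dusp1 was at 33.1 ± 6.92 and Dusp6 at 30.3 ± 4.99 in WT (SD, n = 3), followed by Dusp7 at 11.2 ± 1.41, Dusp8 at 7.35 ± 1.1 and Dusp16 at 4.19 ± 0.54. Dusp5, Dusp14, Dusp4 and Dusp10 followed between 2.65 and 1.03 CPM per kb, and Dusp2 ended the order at 0.277 ± 0.125. Neighbours in this order whose ranges over the WT libraries overlapped were Dusp1 and Dusp6, Dusp5 and Dusp14, Dusp14 and Dusp4, and Dusp4 and Dusp10. Such an overlap does not compare the genes within the same library, so it does not show that their levels were alike. The other steps of the order had no overlap between the WT libraries.

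In the KO libraries the order kept Dusp1, Dusp6 and Dusp7 at its head, at 20.4 ± 5.23, 17.7 ± 1.97 and 10.8 ± 1.68 CPM per kb (SD, n = 3). Dusp8 stood at rank 4 in WT and at rank 6 in KO, at 2.62 ± 0.48 CPM per kb, where its libraries overlapped those of both neighbours, Dusp14 and Dusp5. Dusp16, at rank 5 in WT and rank 4 in KO, overlapped Dusp14 in KO, and Dusp5 overlapped Dusp4. Dusp2 rested on 6 to 28 counts per library, and Dusp10 on 37 to 171.

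**Figure D1:**
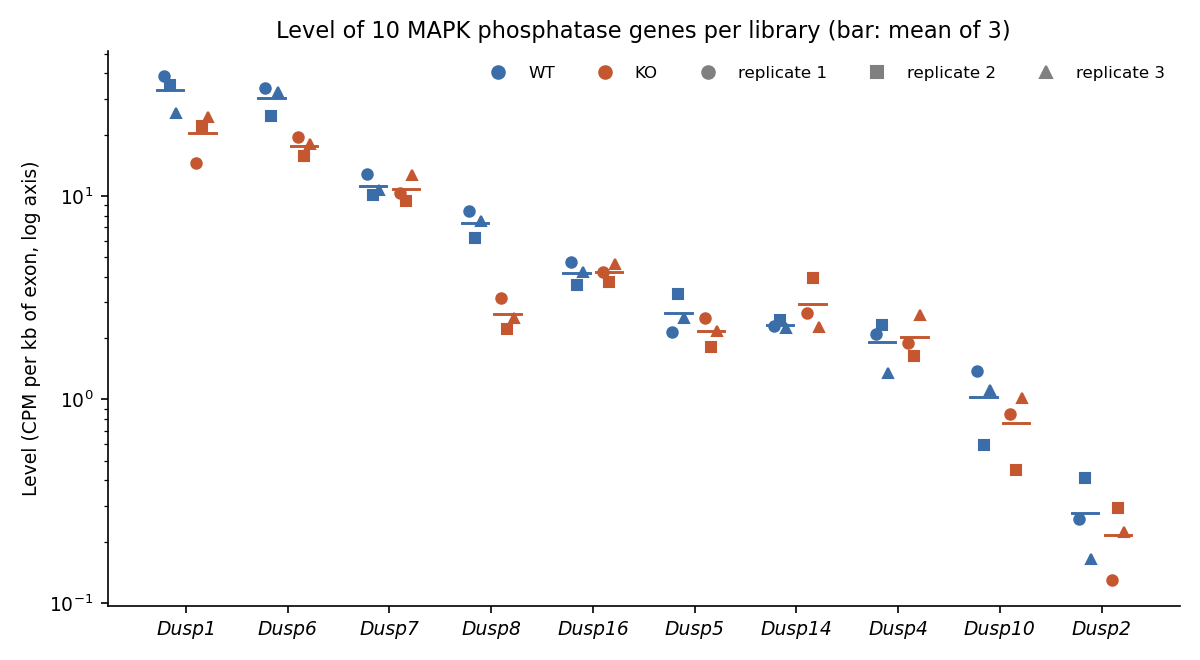
Level of each phosphatase gene in CPM per kb of exon on a log axis, with a point for each library (blue for WT, orange for KO, a symbol for each replicate number) and a bar at the mean of 3. Dusp8 stands in a single group of points at 6.19 to 8.38 in WT and at 2.21 to 3.14 in KO, while the points of Dusp7 and Dusp16 overlap between the groups.

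The summed level of the 10 genes was 340, 278 and 282 CPM in the 3 WT libraries and 196, 194 and 227 CPM in the 3 KO libraries. Every KO library lay under every WT library. Dusp1 and Dusp6 together made up 56.3% to 58.9% of this sum in WT and 47.8% to 53.4% in KO, and Dusp8 made up 10.8% to 12.9% in WT and 5.36% to 7.81% in KO. The libraries are bulk samples of many cells, in which fewer cells of a type and less RNA per cell cannot be told apart.

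Among the JNK and p38-directed members, Dusp8 was lower in KO and its relatives were not set apart. Dusp8 encodes a phosphatase known from brain and heart and lies on chromosome 7 from 142079490 to 142095843 (minus strand, GRCm38). It had counts of 1667, 1027 and 778 in WT, given here and hereafter in the order of the replicate numbers, and of 356, 292 and 353 in KO. On the scaled level these were 40.8, 30.2 and 36.4 CPM in WT and 15.3, 10.7 and 12.2 CPM in KO. The lowest WT library stood well above the highest KO library. The KO mean was 35.6% of the WT mean, with a log2 fold change of -1.49 (SE, the standard error, 0.18), and 0.383% of the genes tested had a lower log2 fold change.

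Dusp16, whose enzyme holds JNK and p38 in check in the cytoplasm, was at 36.7, 28.3 and 33.0 CPM in WT, against 33.1, 29.3 and 35.98 CPM in KO. Its KO mean was 100.4% of the WT mean, with a log2 fold change of 0.01 (SE 0.15). Dusp10, which is known for limiting JNK in immune responses, was at 4.19, 1.82 and 3.37 CPM in WT, against 2.58, 1.36 and 3.07 CPM in KO. Both genes overlapped between the groups, and the log2 fold change of Dusp10 was -0.42 with an SE of 0.41.

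Among the ERK-directed members, Dusp6 was lower in KO, while Dusp5 and Dusp7 overlapped between the groups. Dusp6, on chromosome 10 from 99263231 to 99267488 (plus strand), was at 95.0, 68.8 and 90.2 CPM in WT, against 54.6, 43.6 and 49.98 CPM in KO. The groups did not overlap, and the KO mean of 49.4 ± 5.50 CPM (SD, n = 3) was 58.3% of the WT mean of 84.7 ± 13.9 CPM. The log2 fold change was -0.78 (SE 0.17).

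Dusp7, a close relative of Dusp6 with a cytoplasmic enzyme, was at 43.0, 34.0 and 35.9 CPM in WT, against 34.6, 31.6 and 42.5 CPM in KO. Dusp5, whose enzyme acts on ERK in the nucleus, was at 5.29, 8.13 and 6.23 CPM in WT, against 6.19, 4.45 and 5.35 CPM in KO. In both genes at least 1 KO library lay above a WT library. Their log2 fold changes were -0.05 (SE 0.16) for Dusp7 and -0.30 (SE 0.22) for Dusp5.

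Among the inducible nuclear members, Dusp1 was lower in KO on this scaling, while Dusp2 and Dusp4 overlapped. Dusp1, on chromosome 17 from 26505590 to 26508519 (minus strand), was at 105, 94.9 and 68.6 CPM in WT, against 39.1, 59.7 and 66.1 CPM in KO. The lowest WT library, replicate 3, stood just above the highest KO library, also replicate 3. The KO mean was 61.5% of the WT mean, with a log2 fold change of -0.70 (SE 0.24). When libraries were scaled to total counts, Dusp1 was at 144, 91.8 and 59.8 CPM in WT, against 34.8, 55.6 and 68.5 CPM in KO, and the groups overlapped.

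Dusp4 was at 5.73, 6.37 and 3.70 CPM in WT, against 5.16, 4.49 and 7.07 CPM in KO, for a log2 fold change of 0.08 (SE 0.27). Dusp2, known from activated lymphocytes, was at 0.514, 0.822 and 0.328 CPM in WT, against 0.258, 0.589 and 0.448 CPM in KO, and its log2 fold change of -0.37 had an SE of 0.55. Neither gene had its groups apart. The atypical Dusp14, whose small enzyme is known for restraining T cell receptor signalling, was at 4.48, 4.76 and 4.35 CPM in WT, against 5.16, 7.65 and 4.42 CPM in KO, where replicate 2 stood above the rest. Its log2 fold change of 0.34 (SE 0.24) was the highest of the members, but without KO replicate 2 it was 0.051, below Dusp4 at 0.19.

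**Figure D2:**
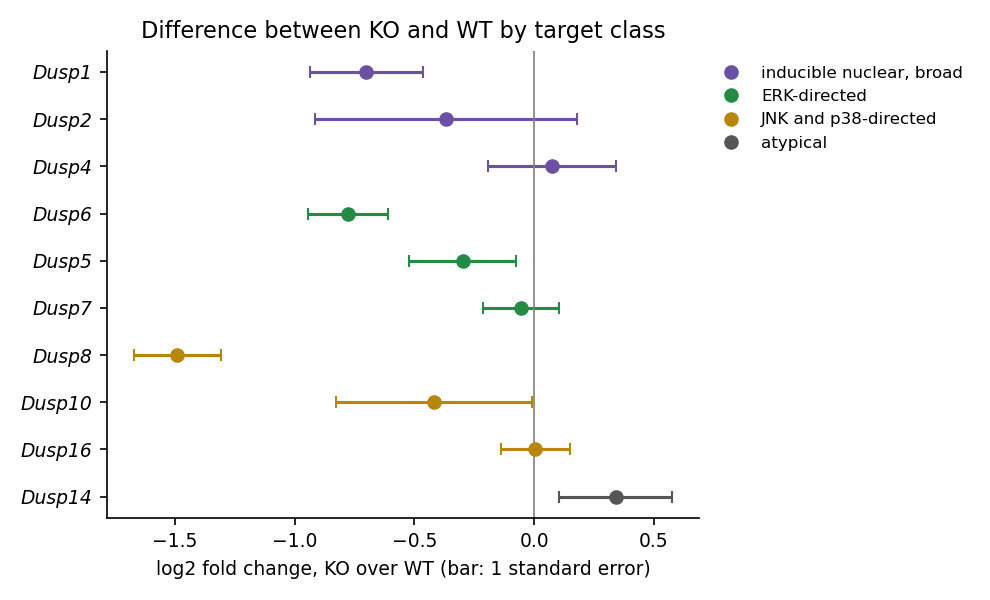
Log2 fold change of KO over WT for each phosphatase gene, as a point with a bar of 1 standard error, coloured by the kinases its enzyme is directed at. Dusp8 at -1.49 lies lowest, and Dusp6 at -0.78 and Dusp1 at -0.70 follow. Each lies in a different class, beside a member near 0 (Dusp16, Dusp7 and Dusp4) and a member below 0 (Dusp10 at -0.42, Dusp5 at -0.30 and Dusp2 at -0.37).

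The classes did not separate. The ERK-directed members had a median log2 fold change of -0.30, from -0.78 to -0.05, and the JNK and p38-directed members one of -0.42, from -1.49 to 0.01. The range of the former lay inside that of the latter, and the order of the medians turned without WT replicate 1, to -0.44 and -0.14, and without KO replicate 2, to -0.21 and -0.18. The inducible nuclear members had a median of -0.37. Over all 10 members the median was -0.33, beside 0.03 over all genes tested, and 7 of the 10 log2 fold changes were below 0, beside 6714 of 14625 genes (45.9%). This count depends on the scaling, since with total counts 9 of the 10 and 63.6% of all genes were below 0, Dusp4 at -0.10 and Dusp16 at -0.18 included, and Dusp16 was also below 0 in DESeq2 and with RLE scaling.

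With the members chosen on this contrast, their counts only describe them. The groups were apart with every KO library lower in 3 of the 10 (Dusp1, Dusp6 and Dusp8), beside 9.2% of all genes tested, and with every KO library higher in 0 of the 10, beside 8.59% of all genes. An unadjusted p under 0.05 in edgeR's fit was reached by the same 3 members, beside 10.3% of all genes in either direction and 4.68% lower in KO. An adjusted p under 0.05 was reached by 1 member, Dusp8, beside 0.109% of all genes, and in DESeq2 by 2 members, Dusp8 and Dusp6, beside 1.21% of the 15470 genes with an adjusted p. For Dusp8, edgeR's adjusted p was 0.047. Without WT replicate 3 it was 0.114, without KO replicates 1, 2 and 3 it was 0.146, 0.254 and 0.329, and over the 13 edgeR alternatives it lay between 4.1e-05 and 0.329. DESeq2 gave 3.5e-08 and limma-voom 0.036.

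Replicates spread by different amounts. The coefficient of variation between the WT libraries was 12.5% in Dusp7, 12.9% in Dusp16 and 15.0% in Dusp8, and 38.4% in Dusp10 and 45.01% in Dusp2, the members with the fewest counts. Dusp14 had the lowest value in WT, at 4.54%, and 29.5% in KO. Within WT, Dusp6, Dusp7, Dusp8, Dusp10 and Dusp16 all had their highest CPM in replicate 1 and their lowest in replicate 2.

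Ratios of counts within a library do not depend on how libraries are scaled. All pairs but the last set a member with a lower scaled level in KO against a relative of its own class. The last, Dusp8 over Dusp6, sets members of different classes side by side. All pairs were chosen after the values were seen, so they describe and test nothing. Dusp8 over Dusp16 was 1.11, 1.07 and 1.11 in WT and 0.463, 0.366 and 0.338 in KO. Thus Dusp8 had slightly more reads than Dusp16 in each WT library and fewer in each KO library. Dusp6 over Dusp7 was 2.21, 2.02 and 2.51 in WT and 1.58, 1.38 and 1.18 in KO. Dusp1 over Dusp4 was 18.3, 14.9 and 18.5 in WT and 7.58, 13.3 and 9.35 in KO, so that the groups were apart for this pair also, with KO replicate 2 nearest to WT. Dusp8 over Dusp6, the ratio of the members with the largest differences in the JNK and p38-directed and ERK-directed classes, was 0.424 ± 0.018 in WT and 0.257 ± 0.020 in KO (SD, n = 3).

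**Figure D3:**
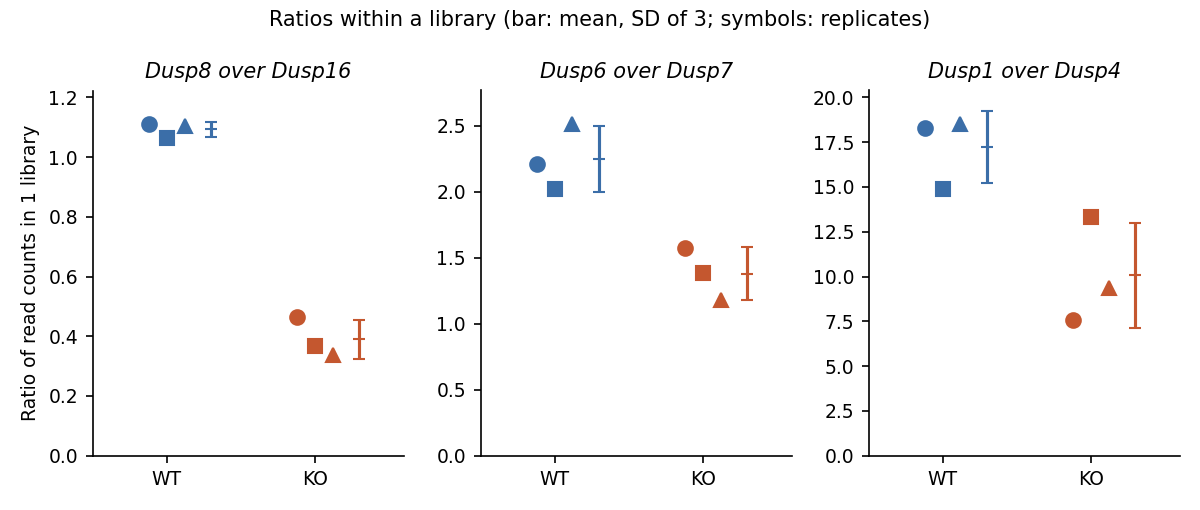
Ratio of read counts within each library for Dusp8 over Dusp16, Dusp6 over Dusp7 and Dusp1 over Dusp4, with a symbol for each replicate and a bar for the mean and SD of 3, on axes that start at 0. The KO libraries lie under the WT libraries for all 3 pairs, by most for Dusp8 over Dusp16 (0.338 to 0.463 in KO, 1.07 to 1.11 in WT).

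Dusp6 and Dusp8 followed each other across libraries. In both groups both genes were highest in replicate 1 and lowest in replicate 2, and Pearson's r of their log2 CPM over the 6 libraries was 0.979. Dusp1 went less closely with Dusp8 (r = 0.667) and with Dusp6 (r = 0.607). These values describe 6 libraries that fall into 2 groups, share their scaling and, for these genes, differ between the groups.

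Among 11628 genes with a mean log2 CPM above 1, the pattern of Dusp8 was most like that of Ywhag, which encodes a 14-3-3 protein, at r = 0.999, followed by Stx18, Ncor1, Stip1 and Ywhah. In each of these every KO library lay below every WT library, which the choice by likeness to Dusp8 favours. Stip1, which encodes a cochaperone that links HSP70 and HSP90, was at 86.2, 67.7 and 83.4 CPM in WT, against 33.0, 29.1 and 32.1 CPM in KO. Its log2 fold change was -1.33 (SE 0.14, edgeR's adjusted p = 0.028), and those of the others lay between -0.58 and -0.26. The pattern of Dusp6 was most like that of the cyclin gene Ccnd2 (r = 0.997), followed by Ncor1, which encodes a corepressor, Mical3, Cttnbp2nl and Gspt1. That of Dusp1 was most like that of Cyc1 (r = 0.998), which encodes cytochrome c1, followed by Cct5, Bud13, Ap1g1 and Cyb5b. The closest genes of Dusp1 differed little in size, with log2 fold changes from -0.29 to -0.11, as the measure reads the shape over libraries and not its size.

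Most members had few separate exon blocks, counted after the overlapping exons of a gene were merged. The median number of blocks over the 10 members was 4, beside 9 over all genes tested. Of the 10, 9 lay below that value, Dusp16 with 10 blocks being the exception. The median exon length was 2768 bp beside 3891 bp, but Dusp8 at 4870 bp and Dusp16 at 7798 bp lay above the latter. No member overlaps a gene on its own strand. Dusp10 and Dusp16 overlap 1700056E22Rik and Gm36328 on the opposite strand, which the stranded counting told apart.

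No difference was called in the genes of the kinases that the phosphatases act on. Mapk3, which encodes ERK1, had a log2 fold change of 0.01 (SE 0.18), whose sign changed with the scaling. Mapk8 and Mapk9, which encode JNK1 and JNK2, were at 0.21 (SE 0.20) and 0.16 (SE 0.14), the latter at -0.04 when scaled to total counts. Mapk14, which encodes p38 alpha, was at -0.14 (SE 0.11). It was at 60.2, 57.1 and 55.6 CPM in WT, against 52.9, 49.9 and 54.2 CPM in KO, without overlap. Over 9 tested MAP kinase genes none passed edgeR's quasi-likelihood test or DESeq2, none had an unadjusted p under 0.05, and the log2 fold changes lay between -0.32 and 0.27. Every KO library lay below every WT library in 3 of these 9 genes, Mapk14 included, beside 9.2% of all genes tested. In 0 of the 9 every KO library lay above, beside 8.59% of all genes. These are mRNA levels, and the phosphorylation of the kinases was not measured in these data.

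Upstream of the MAPKs, no gene passed edgeR's test among 7 MAP kinase kinases and 14 kinases above them. The median log2 fold changes were -0.09 and -0.0019. Every KO library lay above every WT library in 1 MAP kinase kinase gene, beside 8.59% of all genes tested. Every KO library lay below in 1 of the 14 kinases, beside 9.2% of all genes. Of the 21 genes, 1 had an unadjusted p under 0.05, beside 10.3% of all genes. This was Map3k6, which encodes ASK2, a kinase above JNK and p38. It was at 47.8, 54.6 and 32.5 CPM in WT, against 11.5, 7.87 and 15.5 CPM in KO. The groups were far apart, with a log2 fold change of -1.95 (SE 0.29, edgeR's adjusted p = 0.082), and DESeq2 called it.

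Scaffolds and kinases downstream of MAPKs showed no call. None of 6 scaffold genes and none of 9 MAPK-activated kinase genes passed edgeR's quasi-likelihood test or DESeq2 or had an unadjusted p under 0.05, and their median log2 fold changes were 0.08 and 0.0009. Of 7 other phosphatase genes that act on MAPKs, such as Ppm1a and Ppp2ca, again none did by any of the 3 counts, with a median of -0.14. Every KO library lay below every WT library in 1 scaffold gene, 2 MAPK-activated kinase genes and 2 of these phosphatase genes, beside 9.2% of all genes tested. It lay above in none, beside 8.59% of all genes.

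Other feedback inhibitors were mixed. Of 8 tested genes of the Sprouty and Spred list none passed edgeR's test and 1 did so in DESeq2. An unadjusted p under 0.05 was reached by 2 with a lower and 1 with a higher value in KO, beside 10.3% of all genes. Errfi1, which encodes an inhibitor of the EGF receptor, was at 43.0, 62.8 and 48.4 CPM in WT, against 20.6, 23.5 and 21.9 CPM in KO. It had a log2 fold change of -1.22 (SE 0.17, edgeR's adjusted p = 0.058) and was the gene called by DESeq2. Spry4, an inhibitor of the Ras and ERK pathway, had a log2 fold change of -0.61 (SE 0.20). Il17rd, an inhibitor of FGF signalling, went the other way at 0.60 (SE 0.25). Of 5 genes known as outputs of ERK none passed either test. Epha4 was the 1 of these with an unadjusted p under 0.05, beside 10.3% of all genes. It had 6.24, 6.34 and 8.52 CPM in WT and 17.1, 10.3 and 9.28 CPM in KO.

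The immediate early genes, which MAPKs and other signals switch on within minutes, mostly had lower values in KO. Of 23 tested genes 22 had a log2 fold change below 0, with a median of -0.71, and 14 had an unadjusted p under 0.05, all of them lower, beside 4.68% of all genes. At an adjusted p under 0.05, 2 fell in edgeR's quasi-likelihood test and 7 in DESeq2, beside 0.109% and 1.21% of all genes in either direction. Maff, a small MAF transcription factor gene, fell from 50.5, 52.8 and 47.2 CPM to 18.7, 17.8 and 21.8 CPM (log2 fold change -1.37, SE 0.13, edgeR's adjusted p = 0.019). Csrnp1, a nuclear factor gene induced by axin, fell from 28.4, 24.7 and 30.2 CPM to 9.67, 12.1 and 11.9 CPM (log2 fold change -1.31, SE 0.15, edgeR's adjusted p = 0.035). Maff was not called when any single KO library was left out (adjusted p from 0.128 to 0.159), and Csrnp1 was not called without any single KO library (0.186 to 0.238) or without WT replicate 3 (0.107).

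Nr4a3, Atf3 and Egr3 had the lowest log2 fold changes of this list but did not pass edgeR's quasi-likelihood test. Nr4a3, a nuclear receptor gene, was at -2.78 (SE 0.57, edgeR's adjusted p = 0.229), Atf3 at -1.90 (SE 0.27, edgeR's adjusted p = 0.072) and Egr3 at -1.48 (SE 0.56, edgeR's adjusted p = 0.455), with Egr3 under 1 CPM. DESeq2 called Nr4a3 and Atf3 and not Egr3. Fos was at 8.47, 14.3 and 5.67 CPM in WT, against 3.65, 7.76 and 9.93 CPM in KO. Jun (log2 fold change -0.34, SE 0.19) and Egr1 (0.20, SE 0.37) overlapped between the groups as Fos did. Dusp1 is often counted among the same early genes and is kept out of this list.

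**Figure D4:**
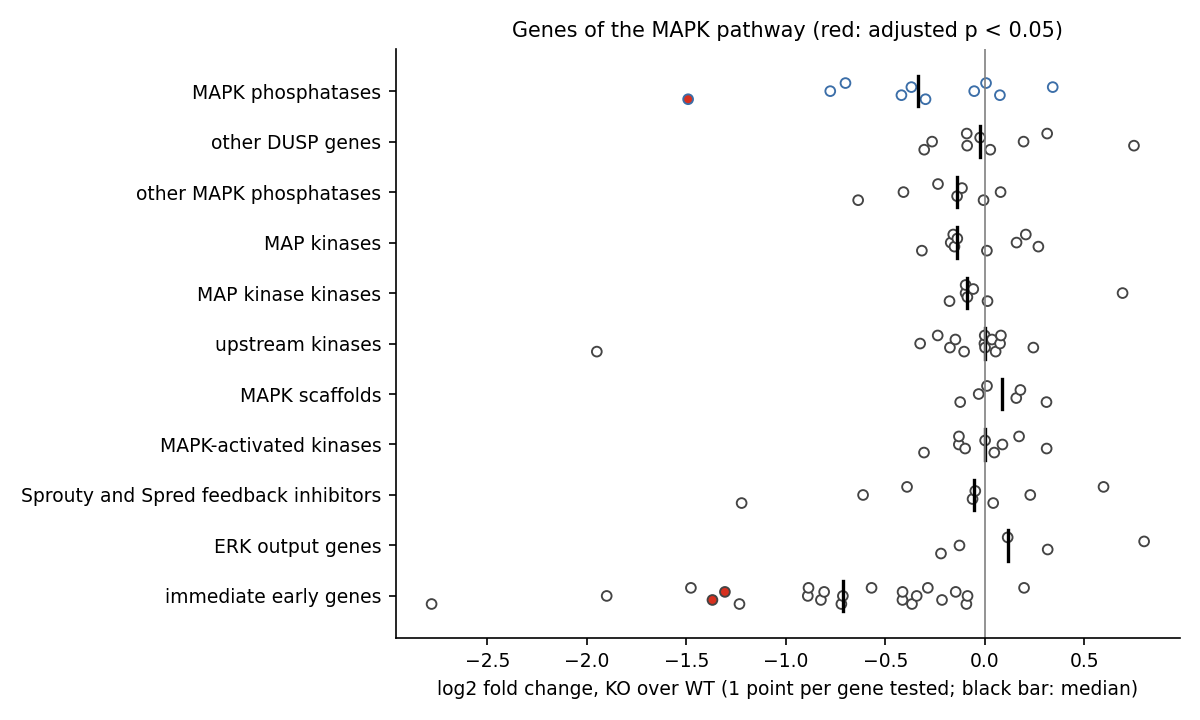
Log2 fold change of KO over WT for each tested gene of the phosphatase group and of 10 lists of the MAPK pathway, with a black bar at each median and red for genes with an adjusted p under 0.05. The medians of the kinase and scaffold lists lie between -0.14 and 0.08, those of the 10 phosphatases at -0.33 and of the immediate early genes at -0.71.

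Among 16 further genes of the DUSP superfamily 9 were tested, their median log2 fold change was -0.02, and none was called by edgeR's quasi-likelihood test or by DESeq2. Dusp11, an RNA phosphatase gene, had an unadjusted p under 0.05, as did 10.3% of all genes, with a log2 fold change of -0.31 (SE 0.13). Dusp3, an atypical phosphatase gene, was far more abundant than any of the 10 members, at 117 CPM per kb of exon in WT and 110 in KO on average, and its log2 fold change was -0.09 (SE 0.20). Dusp9, the third relative of Dusp6 and Dusp7, had 2 to 12 counts per library and did not pass the filter.

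B cell markers separated the groups, while the summed levels of EC and of alveolar type II markers overlapped. All 8 B cell markers were higher in every KO library than in any WT library, beside 8.59% of all genes tested. Their summed level was 11.2 to 23.2 CPM in WT and 78.3 to 83.4 CPM in KO. Of the 8, 3 passed edgeR's quasi-likelihood test, beside 0.109% of all genes. Of 13 EC markers 11 had a log2 fold change above 0, with a median of 0.12 and a summed level of 2589 to 4460 CPM in WT and 2894 to 4564 CPM in KO. Of these 13 markers 1 was higher in every KO library than in any WT library, beside 8.59% of all genes. An unadjusted p under 0.05 in edgeR's fit was reached by 1, beside 10.3% of all genes in either direction. The 7 alveolar type II markers summed to 5418, 50642 and 15622.5 CPM in the WT libraries and to between 39317 and 48623 CPM in the KO libraries, with the groups overlapping for each of the 7. None of these markers was at 0 throughout. The part of these cells in the lower Dusp1, Dusp6 and Dusp8 of the KO libraries was not tested. Leaving out WT replicate 2 gave log2 fold changes of -0.69 for Dusp1, -0.94 for Dusp6 and -1.64 for Dusp8. Leaving out WT replicate 1 gave -0.58, -0.69 and -1.39. WT replicates 1 and 2 differed in type II markers and also in scaling factor (1.37 and 0.969), and the source of these shifts was not tested.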

How the data were processed

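RNA-seq of 3 WT and 3 KO libraries was used, grouped by the sample labels. The authors deposited whole-number read counts per gene and library, not normalized. Per the file headers and the submitters' processing notes, reads were aligned with STAR 2.5.4b to mm10 (GRCm38) and counted on exons with featureCounts of Subread 2.0.0 on the reverse strand, with the annotation of Ensembl release 84. No row lacked a gene.

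Counts were filtered (filterByExpr), scaled (TMM) and tested with glmQLFit and glmQLFTest of edgeR 4.0.16 in R 4.3.3, with genotype as the only term and Benjamini-Hochberg adjustment over 14625 genes at 0.05. The SE of a log2 fold change was derived from this test, as the absolute log2 fold change divided by the square root of the F statistic. CPM used TMM-scaled library sizes, and levels were divided by exon length in kb. Counts of no 2 libraries were within sampling noise (smallest chi-square over its degrees of freedom 36.97). The fit was tested on simulated data with 200 changed genes. DESeq2 1.42.0, limma-voom (limma 3.58.1), other scalings and filters, a replicate block and each library left out were the alternatives.

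Members and gene lists were chosen with earlier results of these data known. Named were all members, in each pathway list the called genes and the 3 largest log2 fold changes with an unadjusted p under 0.05, the main MAPK genes, Fos, Jun, Egr1, Pecam1, Cdh5, Sftpc and the 5 genes most correlated with Dusp1, Dusp6 and Dusp8 (log2 CPM, prior count 2). Ppm1a, Ppp2ca, Dusp3 and Dusp9 were named after their values were seen. A further gene that the rule names is not reported here. Protein sequences were not used here, so coding bases stand for the catalytic site and the planned protein identities were not computed. An exact permutation test with 3 against 3 libraries gives a two-sided p of at least 0.1.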

Additional observations from a re-analysis of the deposited data

How the results depend on the processing

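The number of genes called moved from 16 to 187 in DESeq2, 26 in limma-voom, 26 with RLE scaling, 123 with total-count scaling and 152 without a filter on low counts, and lay between 0 and 791 when a library was left out. It was 0 without any single KO library, where edgeR's quasi-likelihood test had 992, 986 and 1112 genes at an unadjusted p under 0.05, and 791 without WT replicate 2. Members called numbered 2 in DESeq2 and 0 to 2 with a library left out, where 0 without WT replicate 3 or any KO library stands for the loss of Dusp8 and 2 without WT replicate 2 for the gain of Dusp6. Pathway genes called moved from 2 to 9 in DESeq2, 7 with total-count scaling, 8 without a filter and 0 to 9 with a library left out, with 9 again without WT replicate 2, 1 without WT replicate 3 and 0 without any single KO library.

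The median log2 fold change of the ERK-directed members was -0.44 with total-count scaling and lay between -0.44 and -0.16 with a library left out. That of the JNK and p38-directed members lay between -0.74 (without WT replicate 2) and -0.14 (without WT replicate 1). Dusp4 was below 0 in 3 alternatives, Dusp16 in 8 and Dusp7 in 13, and Dusp14 was at 0.051 without KO replicate 2. Dusp1, Dusp6 and Dusp8 were below 0 in all 15 alternatives, Dusp1 between -0.89 and -0.53, Dusp6 between -0.97 and -0.69 and Dusp8 between -1.69 and -1.39. With total-count scaling, relative to the median of all genes, they stood at -0.76, -0.83 and -1.56. Scaling for the count of members apart was varied after the data had been seen, and 2 members were apart with total counts and 3 with median-of-ratios factors.

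Mapk3 turned below 0 in DESeq2 (-0.022), with RLE scaling (-0.018), with total-count scaling (-0.15) and without mitochondrial genes (-0.014), and lay between -0.14 and 0.10 with a library left out. Mapk9 turned to -0.037 and Pecam1 to -0.048 with total-count scaling. With a library left out Egr1 lay between -0.070 and 0.48 and Pecam1 between -0.15 and 0.29. Map3k6, Errfi1, Atf3 and Nr4a3 passed the threshold in DESeq2, with total-count scaling, without a filter and without WT replicate 2. Errfi1 also passed it with RLE scaling, without mitochondrial genes and without WT replicate 1, and so in 7 of 15 alternatives. The other genes passed in 4 of 15.

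Same-numbered WT and KO libraries deviated from their group means with correlations of -0.08, 0.22 and 0.01, so the numbers were not taken to pair the samples. The fit with the replicate block called 0 genes in all, 0 members and 0 pathway genes, with 1776 genes at an unadjusted p under 0.05 in edgeR's quasi-likelihood test, and Dusp8 had an adjusted p of 0.099 in it. The causes of these shifts were not tested. Dusp2 and Dusp9 rest on 2 to 28 counts per library, which limits the precision of their values.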

Other observations

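Markers of other cell types gave the following values, set beside no comparison above. All 5 platelet markers had a log2 fold change above 0 in KO over WT, with a median of 0.78, and their summed level was 27.4 to 41.0 CPM in WT and 38.5 to 73.8 CPM in KO. The 8 tested T and NK cell markers were also all above 0 (median 0.64). Their summed level was 6.12 to 13.01 CPM in WT and 14.6 to 22.05 CPM in KO, without overlap between the groups. Macrophage markers had a median of 0.34, airway epithelial markers one of 0.60, mesenchymal markers one of 0.05 and neutrophil markers one of 0.04, with overlapping summed levels in all 4 lists. In none of these 6 lists did edgeR's quasi-likelihood test or DESeq2 call a gene. An unadjusted p under 0.05 was reached by 4 platelet, 2 T and NK cell, 1 neutrophil and 1 mesenchymal marker, beside 10.3% of all genes.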
